A study of Mus musculus with 8 samples.

Results

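Cytosolic ribosomal proteins are the protein building blocks of the ribosome that translates nuclear mRNA. Their genes were taken by name from the deposited gene table: names beginning with Rpl or Rps and a digit, with Rpsa and the stalk proteins Rplp0, Rplp1 and Rplp2, but without the Rps6 kinases and names marked as pseudogenes or related sequences. The rule found 64 of 18132 gene names. Of these, 31 encode proteins of the large subunit, 25 encode proteins of the small subunit, and 8 are paralogues or related names (Rpl22l1, Rpl39l, Rpl3l, Rpl36al, Rpl7l1, Rps27l, Rps4l and Rps19bp1). Rps19bp1 encodes a protein that binds Rps19 and is not part of the ribosome. It matched the rule by name alone and was kept, so that every member is accounted for.

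A ribosome needs its proteins in fixed proportions, and most of them are made from single active genes scattered over the genome. Many of their mRNAs begin with a run of pyrimidines, the 5′ terminal oligopyrimidine tract, through which mTOR signalling controls their translation. Blood progenitors are known to be sensitive to ribosomal protein dose, since loss of 1 copy of several of these genes causes Diamond-Blackfan anaemia in humans.

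The RNA came from progenitors that were sorted from the bone marrow of C57BL/6 mice, amplified, and hybridised to 8 Illumina MouseRef-8 bead arrays. The 4 groups of 2 arrays each were IRF-8 knockout (KO) all-lymphoid progenitors (ALP), wild-type (WT) ALP, KO common myeloid progenitors (CMP) and WT CMP. IRF-8 is a transcription factor that monocytes, dendritic cells and B cells are known to need, and the title of the series concerns its role in both progenitors. ALP were lineage-negative cells without Ly6D or B220 that carried c-kit, Flk2 and the IL-7 receptor. CMP were lineage-negative cells with high c-kit that carried CD34 and Flk2 and lacked Sca-1, CD11c, CD115 and the Fc receptors CD16 and CD32. The labels give the genotype of each sample, whereas the design text mentions wild-type mice alone; the sources used here give neither the making of the knockout allele nor the age or sex of the mice. Since they do not tie the arrays of a group to separate animals, a p-value here reflects the spread between samples only, which may be technical.

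In the checks of the labels, Il7r and Rag1 were detected on the 4 ALP arrays and on no CMP array. Rag2 was detected on no array. Mpo, a myeloid granule enzyme, had levels of 12.09 and 12.13 in KO ALP, 10.42 and 9.76 in WT ALP, 12.93 and 12.79 in KO CMP, and 12.76 and 12.50 in WT CMP. The Irf8 probe had levels of 11.40 and 11.17 in KO ALP, 10.97 and 10.89 in WT ALP, 10.83 and 10.81 in KO CMP, and 11.06 and 10.96 in WT CMP. Its place relative to the deleted stretch is not known here, and it is no check of the genotype labels. WT ALP array 2 stood apart, with 11122 probes detected against 11571 to 12749 on the others. The WT ALP arrays correlated across features at r = 0.844, against 0.939 to 0.949 within the other groups. KO CMP array 2 was the brightest in raw signal, with a median of 233.3, where the others had 163.8 to 180.5. On WT CMP array 2, 8 of 15 markers of red cells and platelets were detected, against 2 to 7 on each of the others.

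Levels below are normalized log2 signals of 1 probe per gene, and differences were taken between arrays of the same probe. A probe's brightness depends on its sequence as well as on its transcript. Where members are sorted as bright or dim, this ranks signal and not transcript amount. All 64 names were linked to at least 1 probe, 49 of them to 1 probe and 15 to 2. Rpl39l, a copy of Rpl39 known from mouse testis, was detected on no array, and the other 63 were tested. Detection was complete for 58 of them, which were found on all 8 arrays. Ribosomal protein genes have many processed pseudogenes, and which transcripts each probe binds was not tested. With bulk RNA, fewer cells of a type and less RNA per cell cannot be told apart.

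Most ribosomal protein genes kept a narrow range over the 8 arrays. Among the 38 with a mean level of 10 or more, the gap between the highest and the lowest array had a median of 0.53 on the log2 scale, against 0.75 for all 976 features of that brightness. Of the members, 14 had a mean level above 11.99, the 99th percentile of all features, so level was not matched within this class. The part of level in the narrower range was not tested. Rps9, a small-subunit protein, spanned 0.23 and Rpl27, a large-subunit protein, spanned 0.24. Rpl27 had levels of 13.51 and 13.47 in KO ALP, 13.37 and 13.36 in WT ALP, 13.27 and 13.32 in KO CMP, and 13.36 and 13.36 in WT CMP. The widest range at this brightness was 1.41, for Rps6. Below it the members spread about as much as other features: the 12 with mean levels from 8 to 10 had a median range of 1.3 (1.17 for 2932 features), and the 13 dimmer ones had 1.35 (1.49 for 8107 features).

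**Figure D1:**
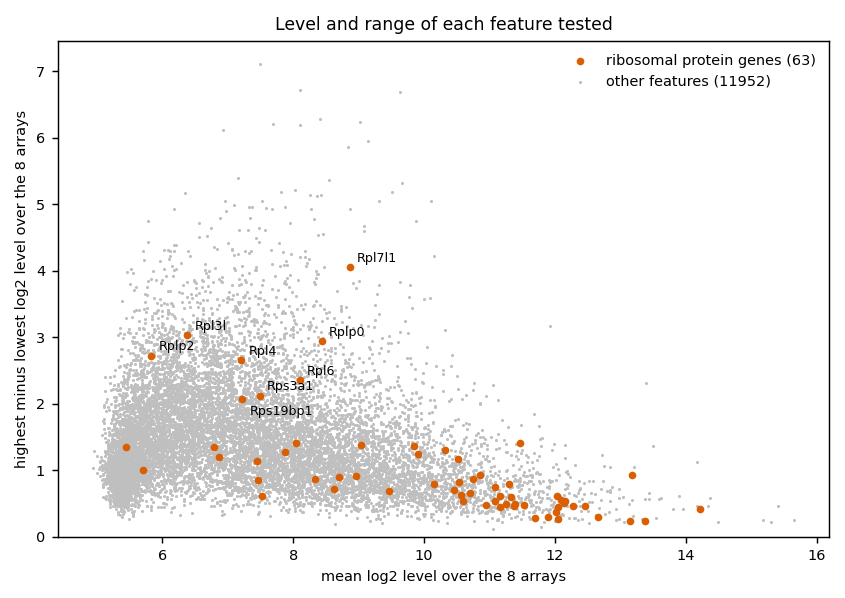
Each point is 1 of the 12015 features tested, with its mean log2 level over the 8 arrays on the x axis and its highest minus its lowest log2 level on the y axis; the 63 ribosomal protein genes are orange. Most bright members lie near the bottom, while the named ones span over 2 log2 units, up to 4.05 for Rpl7l1.

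As a group, the members deviated little from their own means on any array. Their median deviation was 0.098 and -0.022 on the KO ALP arrays, 0.062 and -0.061 on the WT ALP arrays, 0.014 and -0.141 on the KO CMP arrays, and 0.132 and -0.029 on the WT CMP arrays. These 8 medians had an SD of 0.10, and within every group array 1 lay above array 2 by more than 0.1. Over all features the deviations of same-numbered arrays correlated at -0.095 to 0.079, and the part of the array number in the members' values was not tested. The lowest median belonged to KO CMP array 2, the array with the brightest raw signal.

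**Figure D2:**
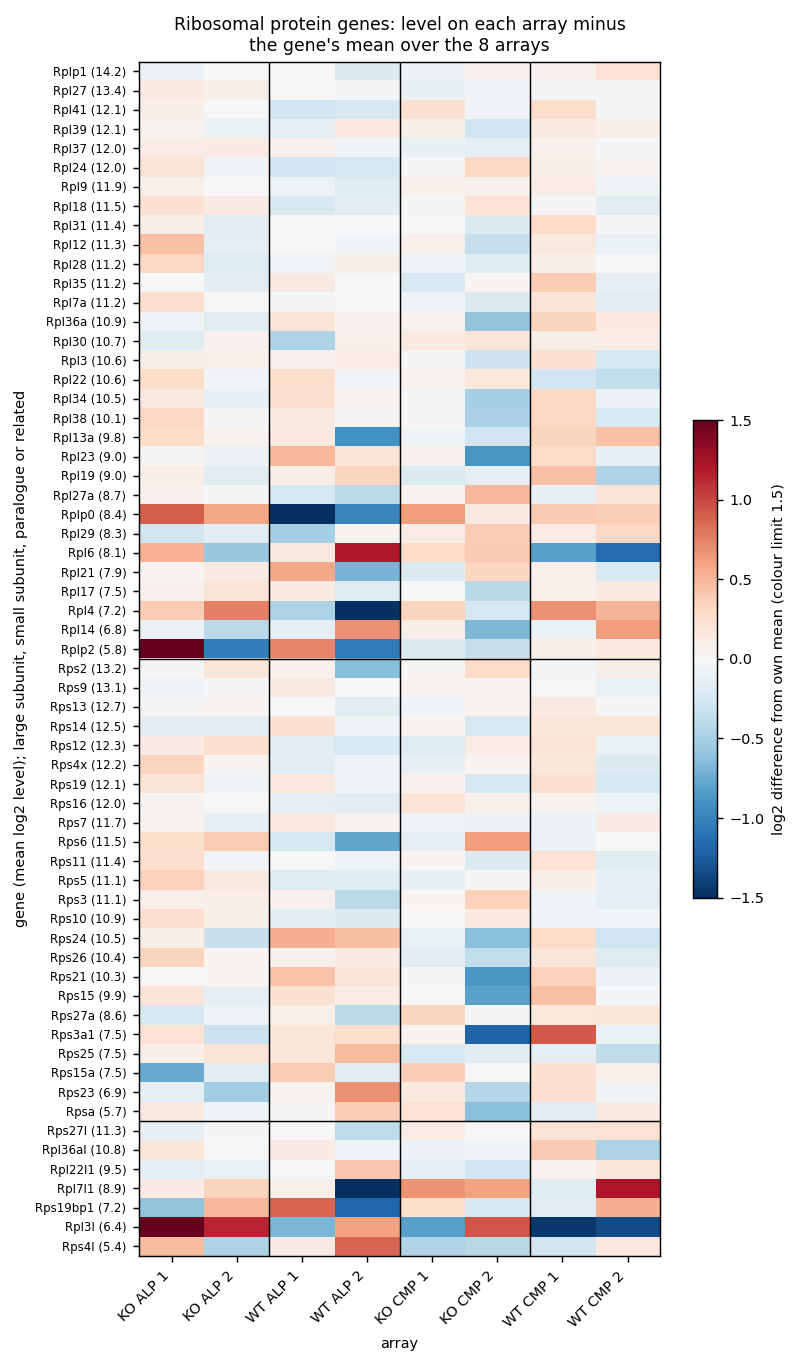
Each row is 1 of 62 ribosomal protein genes with its mean log2 level in brackets, each column is an array, and the colour is the log2 level minus the gene's mean over the 8 arrays, limited to 1.5 either way. Large-subunit genes are on top, small-subunit genes in the middle and paralogues or related names at the bottom; Rplp0, Rpl4, Rpl6, Rpl7l1, Rpl3l and Rplp2 stand out against pale rows.

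In ALP, KO against WT, no ribosomal protein gene passed the test, and the members as a group had nearly the same level in both genotypes. In limma's test with Benjamini-Hochberg adjustment over 12015 features, 0 of 63 members had an adjusted p under 0.05, where 0.133% of all features did. The median log2 difference, KO minus WT, was 0.083, against 0.014 for all features, and it was -0.061 under median scaling. Of the 63, 39 lay above 0 (51.3% of all features), and 25 did under median scaling. Large-subunit genes had a median of 0.115, with 21 of 31 above 0, and small-subunit genes had 0.003, with 13 of 25 above 0. An unadjusted p under 0.05 was reached by 3 members, Rplp0, Rpl4 and Rps6, and by 13.4% of all features.

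Rplp0, which anchors the stalk that recruits elongation factors to the large subunit, had the largest difference. Its levels were 9.35 and 9.02 in KO ALP, against 6.42 and 7.45 in WT ALP. The CMP arrays lay near the KO ALP arrays, with 9.07 and 8.57 in KO CMP and 8.83 and 8.79 in WT CMP. Both KO ALP arrays lay well above both WT ALP arrays, and only the WT ALP arrays fell below 8. The difference in ALP was 2.25 (SE 0.40, 95% interval 1.33 to 3.18), a 4.77-fold ratio, with an adjusted p of 0.113 in limma. A second Rplp0 probe did not show the same pattern. It read 7.78 and 7.84 in KO ALP against 7.87 and 6.33 in WT ALP, groups that overlapped, with a difference of 0.71 (SE 0.54). WT ALP array 1, the lowest array for the first probe, was among the highest for the second. Which probe stands nearer to the transcript's level was not tested.

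Rpl4, whose protein lines the exit tunnel of the large subunit, had levels of 7.58 and 7.96 in KO ALP, against 6.73 and 5.30 in WT ALP. The groups did not overlap, and the probe was not detected on WT ALP array 2. The difference was 1.75 (SE 0.48, 95% interval 0.63 to 2.87, adjusted p = 0.21 by limma). The second Rpl4 probe pointed the same way, with 6.40 and 6.73 in KO ALP and 6.38 and 5.09 in WT ALP. There the difference was 0.83 (SE 0.47), and the lower KO ALP array was barely above the higher WT ALP array.

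Rps6, the small-subunit protein that S6 kinases phosphorylate when mTOR is active, was the bright member with the largest difference. Its levels were 11.72 and 11.84 in KO ALP, against 11.19 and 10.68 in WT ALP, without overlap. The difference was 0.85 (SE 0.35, 95% interval 0.04 to 1.66, adjusted p = 0.355 by limma). The CMP arrays reached from 11.32 to 12.09, so the highest Rps6 level of all was on KO CMP array 2.

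**Figure D3:**
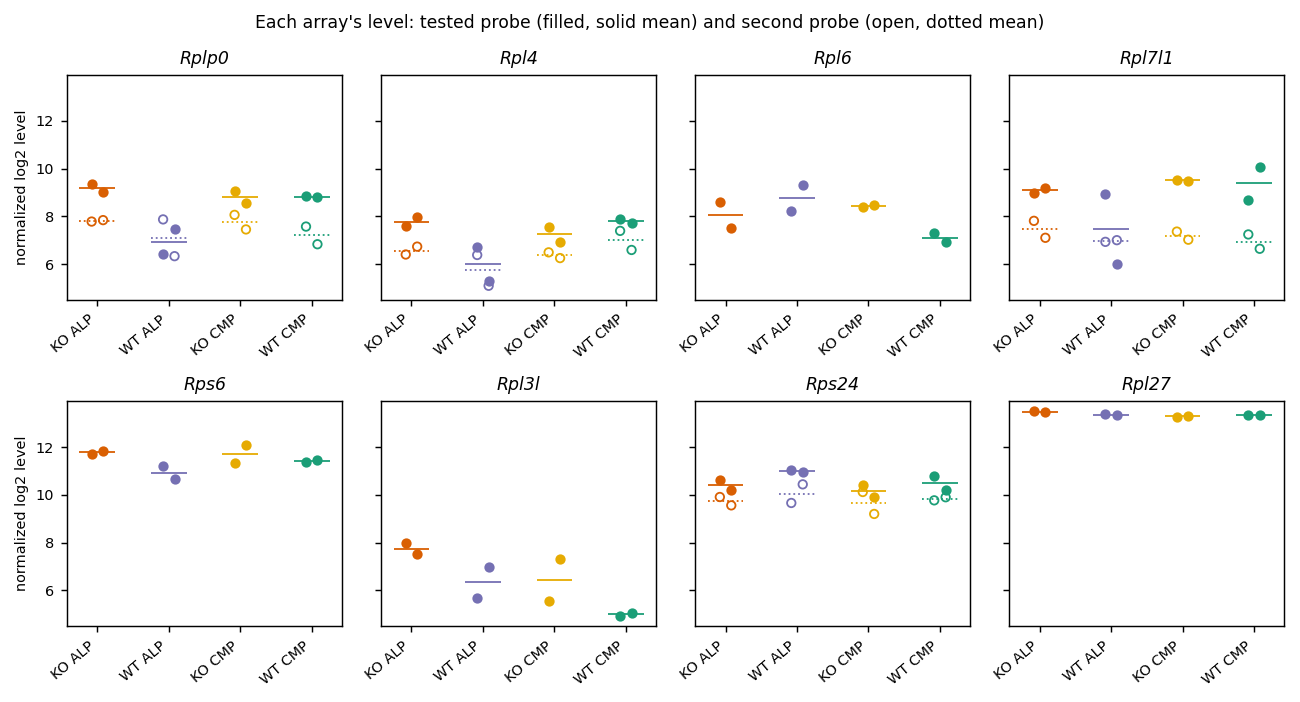
Normalized log2 level (y axis) on each array for 8 ribosomal protein genes in the 4 groups (x axis), with filled points and solid mean lines for the probe tested and open points and dotted mean lines for a second probe where there is one. WT ALP is lowest for the first probes of Rplp0 and Rpl4, the second Rplp0 probe overlaps between KO and WT ALP, and Rpl27 is flat at 13.27 to 13.51.

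On the other side, 3 small-subunit genes were among those with the lowest differences whose groups did not overlap. Rps23, a protein of the decoding centre, had -0.70 (SE 0.36), and Rps15a had -0.57 (SE 0.34). Rps24, which pre-rRNA processing needs, had levels of 10.62 and 10.19 in KO ALP against 11.06 and 10.97 in WT ALP, a difference of -0.61 (SE 0.34). Its second probe gave -0.31 with groups that overlapped. The 3 had adjusted p-values of 0.454 to 0.519 in limma. In all, both KO ALP arrays lay above both WT ALP arrays for 19 members and below them for 11, where 22.3% and 19.9% of all features did. The members' counts are near these shares.

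The bounds on what could have been missed were wide. The 95% interval lay within 1 log2 unit of 0 for 39 of 63 members in ALP, against 24.6% of all features, and the other intervals reached past that size. Marker lists measured beside these values gave 0 calls by limma between KO ALP and WT ALP in the 3 that follow, where 0.133% of all features were called. Genes of the immediate early and heat shock response had a median difference of -0.888, with 2 of 15 tested above 0. The CMP markers had a median difference of 0.224, with 3 of 5 tested above 0. Among them, Spi1, a myeloid transcription factor, had levels of 8.33 and 8.53 in KO ALP and 7.32 and 6.47 in WT ALP, and Mpo stood higher on both KO ALP arrays as given above. Cd34 and Flt3 went the other way. Cd34 had 8.06 and 7.72 in KO ALP against 8.21 and 8.35 in WT ALP, and Flt3 had 10.05 and 10.24 against 10.59 and 10.46. Cebpa was detected on 2 of the 8 arrays. The B lymphoid markers had 2 and 1 of 7 detected on the KO ALP arrays and 0 and 1 on the WT ALP arrays, with 2 tested, and Pax5 was detected on no array. Their part in the ribosomal protein values was not tested.

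In CMP, KO against WT, the members again gave no call, and their median was slightly below that of all features. By limma with Benjamini-Hochberg adjustment, 0 of 63 passed, where 0.15% of all features did. The median difference was -0.139 (-0.002 for all features), and 20 of 63 members lay above 0 (49.8% of all features). The 95% interval lay within 1 log2 unit of 0 for 39 of 63 (28.7% of all features). Large-subunit genes had a median of -0.155 and small-subunit genes -0.087. Under median scaling the members' median was -0.337 while that of all features was -0.144, so the members lay 0.193 below it. Without WT CMP array 1, where the members were highest, the median was -0.026. Cell cycle genes had a median of -0.381, with 3 of 21 above 0, and the red cell and platelet markers had a median level of 7.77 on WT CMP array 2 against 5.42 on WT CMP array 1. Without WT CMP array 2 the members' median was -0.18. What part these arrays and transcripts have in it was not tested.

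Rpl6, a protein on the surface of the large subunit, had levels of 8.40 and 8.49 in KO CMP, against 7.28 and 6.94 in WT CMP. Both KO CMP arrays lay above both WT CMP arrays. The difference was 1.34 (SE 0.47, 95% interval 0.24 to 2.43, adjusted p = 0.772 by limma), the smallest adjusted p of a member in CMP. Rpl6 went the other way in ALP, with 8.62 and 7.53 in KO ALP and 8.24 and 9.30 in WT ALP, but these arrays overlapped. That difference was -0.69 (SE 0.47).

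Rpl3l, a relative of Rpl3 known from heart and skeletal muscle, had the largest difference in CMP. Its levels were 5.57 and 7.32 in KO CMP against 4.94 and 5.04 in WT CMP, where it was not detected on either array. The mean of the 2 KO CMP arrays was at least 1.87-fold above WT CMP, taking the lowest detected signal of each WT array as the floor. This bound holds for the mean and not for each KO CMP array. The fitted difference was 1.46 (SE 0.62, adjusted p = 0.892 by limma), and it rested mostly on KO CMP array 2. In ALP the levels were 7.97 and 7.53 in KO ALP and 5.70 and 6.99 in WT ALP, a difference of 1.40 (SE 0.62, adjusted p = 0.393). Rpl3 itself had differences of -0.01 in ALP and -0.17 in CMP.

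An unadjusted p under 0.05 was reached in CMP by 2 members, Rpl6 and Rpl3l, and by 5.53% of all features. Both KO CMP arrays lay above both WT CMP arrays for 9 members and below them for 12 (19.6% and 19.2% of all features). Among the 9, Rpl22, an RNA-binding protein that T-cell development needs in mice, had a difference of 0.43 (SE 0.28). Rps3, a protein at the mRNA entry channel, had 0.29 (SE 0.29), and 0.03 at its second probe, where the groups overlapped. Among the 12 were Rpl4 (-0.57, SE 0.48), Rpl36a (-0.51, SE 0.31), Rplp2 (-0.39, SE 0.87) and Rpl13a (-0.56, SE 0.38), whose human protein is known to leave the ribosome in interferon-treated monocytic cells. All 6 had adjusted p-values of 0.946 to 0.985. The lowest difference of all in CMP, -0.99 for Rps3a1, came from groups that overlapped.

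**Figure D4:**
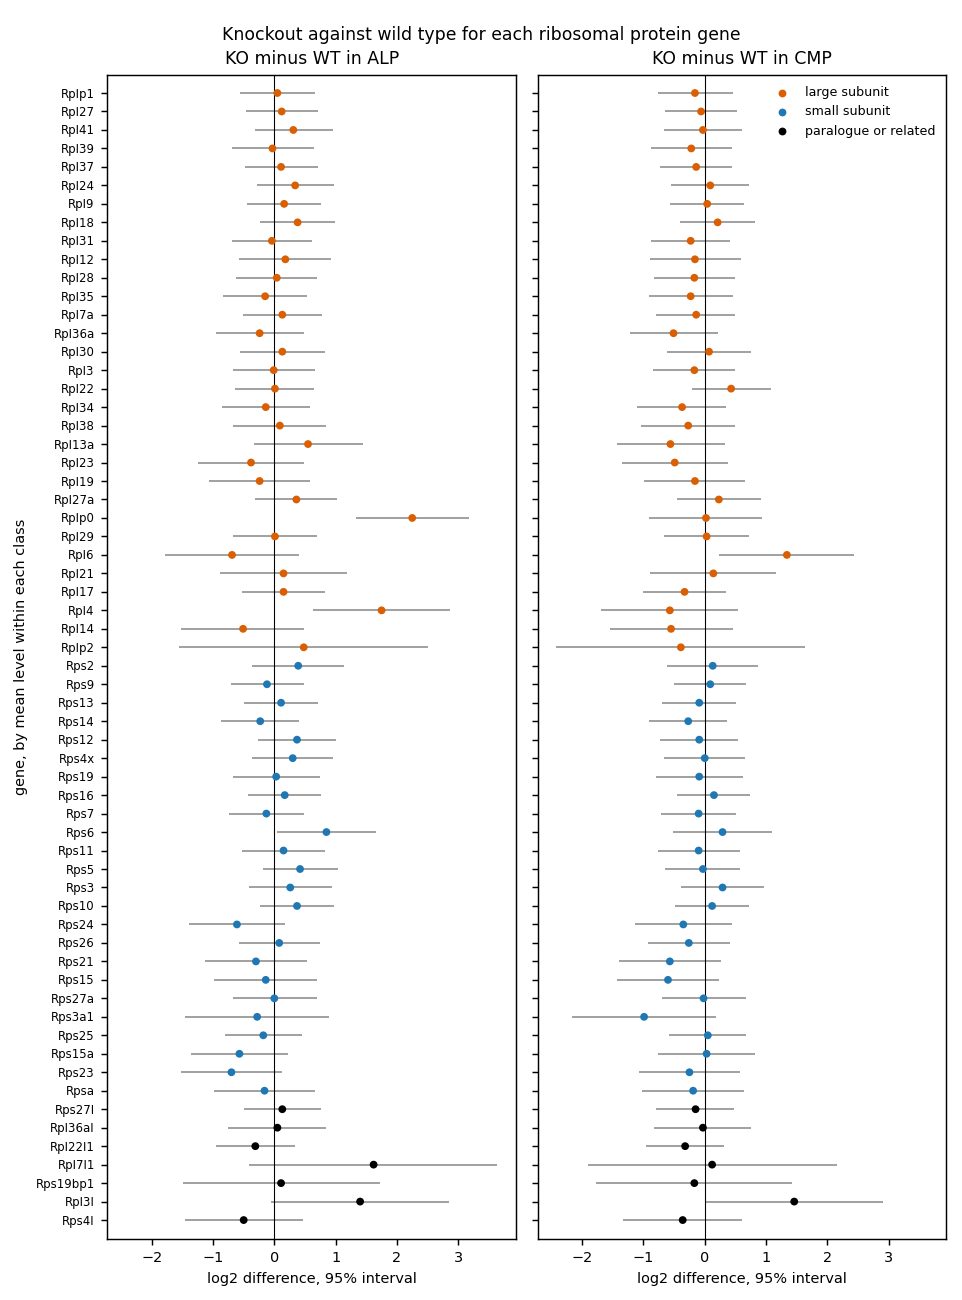
Log2 difference, KO minus WT, in ALP (left) and CMP (right) for 62 ribosomal protein genes (y axis), with bars for the 95% interval of the fit and colours for the large subunit, the small subunit and paralogues or related names. Most points lie within 0.5 of 0; Rplp0 (2.25) and Rpl4 (1.75) in ALP and Rpl6 (1.34) in CMP lie farthest out among the subunit genes.

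The test of whether the KO effect differed between the cell types, ALP minus CMP, gave 0 calls among 63 members, where 0.00832% of all features passed in limma. The difference of the effects had a median of 0.189 over the members and 0.032 over all features. It lay above 0 for 49 of 63 members, against 52.2% of all features. Among the 38 bright members 33 lay above 0, with a median of 0.206 against 0.058 for all features of that brightness. Mitochondrial ribosomal proteins (median 0.225, 46 of 67 above 0), initiation factors (0.255, 20 of 27) and cell cycle genes (0.41, 18 of 21) tilted the same way. Genes of Myc and mTOR control (-0.14, 4 of 14) and of the immediate early and heat shock response (-0.385, 4 of 15) tilted the other way. An interval within 1 log2 unit of 0 was found for 7 members (2.99% of all features), so a difference between the effects was poorly bounded. The largest values were 2.33 for Rpl4 (SE 0.68, adjusted p = 0.522) and 2.24 for Rplp0 (SE 0.56, adjusted p = 0.458). At the other end, Rpl6 had -2.03 (SE 0.67, adjusted p = 0.572). These 3 were the members with an unadjusted p under 0.05, which 7.07% of all features reached.

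The other members named in this test had smaller values. Rpl7l1 had 1.49 (SE 1.23) and Rpl13a 1.11 (SE 0.54). Rps15a had -0.60 (SE 0.48), Rps23 -0.45 (SE 0.50) and Rpl22 -0.43 (SE 0.39). For 4 members, Rpl27, Rpl37, Rpl4 and Rps9, the KO arrays lay wholly on one side of the WT arrays in ALP and wholly on the opposite side in CMP, as they did for 5.94% of all features. For 8 members, Rpl18, Rpl22l1, Rpl36a, Rpl3l, Rps10, Rps14, Rps16 and Rps3, they lay on the same side in both (11.1% of all features). These patterns hold for the tested probes. In ALP the second Rps9 probe had a difference of 0.03 with groups that overlapped. The second Rps3 probe had 0.1 in ALP and 0.03 in CMP, with overlap in both. Rpl37 was linked through part of its probes. Its deposited gene values were 3.66 and 3.80 in KO ALP against 3.74 and 4.94 in WT ALP, which overlapped.

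Between the cell types in WT, ALP against CMP, 0 of 63 members passed, where 1.49% of all features did by limma with Benjamini-Hochberg adjustment. The median difference, ALP minus CMP, was -0.059 (-0.023 for all features), with 24 of 63 above 0 (48.6% of all features). For 35 members the 95% interval lay within 1 log2 unit of 0 (23.0% of all features). Both WT ALP arrays lay above both WT CMP arrays for 7 members and below them for 19 (20.5% and 23.5% of all features). The 3 members with an unadjusted p under 0.05 were again Rplp0, Rpl4 and Rpl6 (15.1% of all features). The lowest difference, -1.90 for Rpl7l1, came from groups that overlapped. This comparison uses the same WT arrays as the KO comparisons, so the values are not independent of those above.

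In this comparison Rplp0 had -1.87 (SE 0.40, adjusted p = 0.0754), the smallest adjusted p of a member in any comparison, while its second probe had -0.10. Rpl4 had -1.80 (SE 0.48, adjusted p = 0.139) and -1.26 at its second probe. Rpl6 had 1.66 (SE 0.47, adjusted p = 0.162), with 8.24 and 9.30 in WT ALP against 7.28 and 6.94 in WT CMP. The mean of WT ALP for Rpl3l was at least 1.75-fold above the floor of WT CMP, where Rpl3l was not detected. Rps4l, a relative of Rps4x, was not detected in WT CMP either. Its levels were 5.56 and 6.32 in WT ALP against 5.16 and 5.59 in WT CMP, groups that overlapped. The difference was 0.57 (SE 0.41, adjusted p = 0.564 by limma). Rps25, a protein known from initiation at viral internal ribosome entry sites, had 0.58 (SE 0.27) and Rps24 had 0.51 (SE 0.34). Rpl13a had -0.77 (SE 0.38) and Rps6 -0.48 (SE 0.35).

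Between KO ALP and KO CMP, 0 of 63 members passed, where 0.0583% of all features did in limma, and 0 reached an unadjusted p under 0.05, where 5.88% of all features did. The median was 0.10 (0.001 for all features), with 44 of 63 above 0 (50.2% of all features). For 39 members the 95% interval lay within 1 log2 unit of 0 (28.6% of all features). Both KO ALP arrays lay above both KO CMP arrays for 15 members and below them for 8 (20.1% and 19.3% of all features). Rpl3l had 1.30 (SE 0.62, adjusted p = 0.875), Rpl4 0.53 (SE 0.48), Rps21 0.45 (SE 0.36) and Rps26 0.45 (SE 0.29). Rps15a had -0.64 (SE 0.34), Rpl29 -0.47 (SE 0.30), Rpl7l1 -0.40 (SE 0.87) and Rps27a, made as a fusion with ubiquitin, -0.30 (SE 0.29). The second probes of Rpl29 and Rpl7l1 pointed the other way. They had 0.37 for Rpl29, without overlap of the groups, and 0.27 for Rpl7l1, with overlap. Rplp0, which stood lowest in WT ALP, had 0.36 (SE 0.40) here.

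Of the other stalk proteins, Rplp1, which pairs with Rplp2 on the stalk, had differences of 0.05 in ALP and -0.16 in CMP, within a range of 0.42 over the 8 arrays. Rplp2 was dim and uneven: its probe had 7.50 and 4.80 in KO ALP, 6.56 and 4.78 in WT ALP, 5.63 and 5.49 in KO CMP, and 5.92 and 5.98 in WT CMP. The gap within KO ALP alone was as wide as any between groups, and the probe was detected on 6 of the 8 arrays.

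Paralogue forms were measured beside the forms they resemble where both were present. Rpl22l1, a relative of Rpl22, had levels of 9.34 and 9.36 in KO ALP against 9.47 and 9.86 in WT ALP, and 9.33 and 9.17 in KO CMP against 9.51 and 9.63 in WT CMP. The KO arrays lay below the WT arrays in both cell types, with differences of -0.31 and -0.32, while Rpl22 had 0.01 and 0.43. Neither gene passed the test. Rpl36al, a relative of Rpl36a, had differences of 0.05 in ALP and -0.03 in CMP, against -0.24 and -0.51 for Rpl36a. Rps27l, known as a p53 target, had 0.13 and -0.15. Rps4l had -0.50 in ALP and was not detected on any CMP array, and Rps4x had 0.30 and 0.00. Rpl39 had -0.03 and -0.22.

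Rpl7l1, a relative of Rpl7 known from large-subunit assembly, had the widest range of all members, 4.05. Its levels were 8.99 and 9.20 in KO ALP, 8.94 and 6.02 in WT ALP, 9.54 and 9.47 in KO CMP, and 8.68 and 10.08 in WT CMP. A single array, WT ALP array 2, lay far below the other 7. The difference in ALP was 1.62 (SE 0.87, adjusted p = 0.476 by limma) and 0.49 at a second probe, on which WT ALP array 2 was not low (7.0). Rps19bp1, the binding partner of Rps19, had 6.63 and 7.72 in KO ALP against 8.10 and 6.03 in WT ALP, with differences of 0.11 in ALP and -0.17 in CMP.

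Of 10 genes listed for human anaemias with loss of a ribosomal protein, 6 were among the members. Rps19, Rps24, Rps7, Rps10 and Rps26 are known from Diamond-Blackfan anaemia, and Rps14 from the 5q deletion syndrome. None passed the limma test in any comparison (0 of 6, each compared with the shares of all features above). Their differences in ALP ran from -0.61 for Rps24 to 0.37 for Rps10, with 3 above 0. In CMP they ran from -0.35 for Rps24 to 0.12 for Rps10, with 1 above 0. Rps19, the gene most often mutated in Diamond-Blackfan anaemia, had 12.34 and 12.08 in KO ALP against 12.28 and 12.08 in WT ALP, and 12.20 and 11.87 in KO CMP against 12.37 and 11.88 in WT CMP. Its differences were 0.03 (95% interval -0.68 to 0.75) and -0.09 (-0.80 to 0.63).

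For 14 members both of 2 linked probes were detected, which allowed a check within the same arrays. The KO minus WT differences of the 2 probes had the same sign for 9 of 14 in ALP and 10 of 14 in CMP. The gap between them had a median of 0.27 in ALP and 0.18 in CMP, and it was largest for Rplp0 in ALP (1.54) and Rpl21 in CMP (0.89). These gaps are of the size of most members' differences. In ALP against CMP the signs matched for 7 of 14 in WT and 4 of 14 in KO.

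The promoters of 52 members were found in RefSeq (GRCm38.p6). The window of 80 bases from 50 before to 30 after the annotated start was searched on the coding strand for its longest run of C and T. A run of 8 or more was present for 28 of 52 members (53.8%), against 30.2% of 27025 promoters. The 6 letters CCGGAA, the core of many ETS factor sites, were present on either strand of the 300-base promoter for 26 of 52 (50%), against 15.2% of all promoters. The windows of the 4 subunit genes with the smallest p-values are shown, 5′ to 3′, with the longest run of C and T in capitals. They lie at chr5:115559417-115559496 (plus strand) for Rplp0, chr9:64173337-64173416 (plus) for Rpl4, chr5:121204451-121204530 (plus) for Rpl6 and chr4:86857338-86857417 (minus) for Rps6.
Rplp0: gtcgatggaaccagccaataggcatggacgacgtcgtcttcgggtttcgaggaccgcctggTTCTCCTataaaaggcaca
Rpl4: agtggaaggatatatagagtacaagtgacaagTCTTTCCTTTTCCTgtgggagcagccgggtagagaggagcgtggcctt
Rpl6: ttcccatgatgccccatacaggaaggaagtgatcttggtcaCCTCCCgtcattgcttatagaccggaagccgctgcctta
Rps6: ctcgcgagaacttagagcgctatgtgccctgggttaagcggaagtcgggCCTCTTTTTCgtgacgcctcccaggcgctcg
The run of Rps6, 10 bases long, spans the annotated start. That of Rpl4, 14 bases long, lies before it. In Rplp0 and Rpl6 the longest runs have 7 and 6 bases. A match of letters is a description of the sequence and not a binding site, and the arrays measured no translation.

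Genes that make or use ribosomes were read against the shares of all features called by limma, which were 0.133% for KO against WT in ALP, 0.15% in CMP, 0.00832% for the difference of effects, 1.49% for ALP against CMP in WT and 0.0583% in KO. At such shares, lists of this size would hold few calls or none. Among 35 tested genes of ribosome biogenesis, 0 passed in each of the 5 comparisons, with medians of 0.116 for KO against WT in ALP and 0.071 in CMP. Their medians were -0.332 in WT and -0.265 in KO for ALP against CMP. Mitochondrial ribosomal proteins, encoded in the nucleus for a separate ribosome, had 0 of 67 called in each comparison, with medians of 0.026 in ALP and -0.16 in CMP for KO against WT and, for ALP against CMP, 0.01 in KO (34 of 67 above 0) and -0.295 in WT (15 of 67 above 0). Initiation factors (27 tested), elongation factors (7) and RNA polymerase I subunits (9) gave 0 calls in each as well. Among 14 tested genes of Myc and mTOR control, Mycn, a Myc family factor, was at least 2.55-fold higher in WT ALP, with 6.78 and 7.0, than in WT CMP, with 4.90 and 4.93, where it was not detected (adjusted p = 0.0233 by limma). It was the 1 call in these lists, and its levels were 5.37 and 5.84 in KO ALP. Rack1, a small-subunit scaffold protein outside the naming rule, had differences of 0.07 in ALP and 0.04 in CMP.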

How the data were processed

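The deposited scanner table holds linear signal intensity per probe, and its values show no normalization by the authors. The deposited table also holds a detection p-value for each signal. For WT CMP array 1 the header of that column lacks the replicate number, and the column was taken as that array's because the other WT CMP column is numbered 2. The authors' deposited gene table holds log2 values. Rebuilding with a background model and quantile normalization matched 11584 genes to 1 probe each to within 2e-05, as worked out from the values themselves. Genes of 2 or 3 probes (2796 and 865) were matched by the probes' mean or by median polish, at somewhat looser limits. Another 2289 genes were linked through part of their probes, without their values being rebuilt in full. No label or header names the software. The scanner table has no gene names, so probes were named by that rebuilding, which linked 17535 of 18132 genes (96.7%). Rpl23 and Rpl37 were linked through part of their probes, and 2 older member names were updated to current symbols (Rps3a1 and Rps4l).

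With limma 3.58.1 (R 4.3.3), the background was corrected by neqc from the detection p-values (offset 16), followed by quantile normalization and log2. A probe had to be detected (p under 0.05) on 2 or more arrays, and the linked probe with the highest mean stood for its gene. This left 12015 features, of which 9626 were named. A model of the 4 group means was fitted to all features (residual degrees of freedom 4, prior 3.59). It assumes equal spread in all groups, but the median SD over features was 0.376 in WT ALP, against 0.214 to 0.26 elsewhere. Intervals and p-values that use WT ALP may therefore be too tight. With array weights, 7 features passed for KO against WT in ALP, where the main fit had 16. For ALP against CMP in WT, 98 passed with weights, where the main fit had 179. Benjamini-Hochberg adjustment was made per comparison, with a threshold of 0.05. Intervals are 95% intervals of the fit for 1 gene. With 2 arrays per group, the number of arrays limits the precision.

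Members are named by rule: any that passed, up to 4 each way per comparison with the largest differences among groups that did not overlap (no such condition for the difference of effects), the stalk proteins, paralogues with the forms they resemble, and the anaemia genes. For 1 tested member the values are not reported here, though all counts and medians include it. Rpl27, Rps9, Rps3a1, Rpl18, Rpl37, Rps16, Rpl21 and Rpsa were named after their values were seen. The members and lists were chosen with earlier results of these data known. The alternatives were no background correction, median scaling, the authors' values, no filter or a stricter one, the mean of linked probes, array weights, a replicate block and leaving out each array. Deviations of same-numbered arrays, between groups that share a cell type or genotype, correlated across features at -0.095 to 0.079. Such values cannot decide whether the numbers pair the samples, and the main fit did not pair them. Columns that belong to no sample here numbered 0. The methods were tested on simulated data. The rest was done in Python 3.11.15 (pandas 2.3.3, numpy 2.4.6, matplotlib 3.10.9, scipy 1.17.1).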

Additional observations from a re-analysis of the deposited data

Results flagged for a closer look

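For Rpl4 the KO effect had opposite directions in the 2 cell types. Both KO ALP arrays (7.58 and 7.96) lay above both WT ALP arrays (6.73 and 5.30), and both KO CMP arrays (7.54 and 6.94) lay below both WT CMP arrays (7.90 and 7.72). The difference of the effects, ALP minus CMP, was 2.33 on the log2 scale (SE 0.68), and its own test gave an adjusted p of 0.522 in limma, so it did not pass. At the second Rpl4 probe it was 1.45 (SE 0.67). The probe was not detected on WT ALP array 2, and the cause was not tested.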

How the results depend on the processing

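No member was called under any alternative that kept all 8 arrays, the authors' values included. Under median scaling the members' median for KO against WT was -0.061 in ALP and -0.337 in CMP, against 0.083 and -0.139; the other medians kept their direction there. With each array left out in turn, the median ran from -0.013 to 0.144 for KO against WT in ALP, -0.189 to -0.026 in CMP, 0.098 to 0.253 for the difference of the effects, -0.175 to 0.017 for ALP against CMP in WT and 0.027 to 0.195 in KO. The number of members called ran from 0 to 3 in ALP and 0 to 4 for ALP against CMP in WT, and it was 0 each time in the other comparisons.

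All calls came from fits without a WT ALP array, in which the lone WT ALP array is assumed to vary like the other groups. Without WT ALP array 1, Rplp0 (1.74, adjusted p = 0.0332), Rpl4 (2.46, 0.0182) and Rpl7l1 (3.07, 0.0234) passed in ALP, and Rpl6, Rpl4 and Rpl13a (-1.31, 0.0443) were among 4 members that passed for WT ALP against WT CMP. In that fit 968 features passed in ALP and 1217 between the WT cell types, against 16 and 179 with all arrays. Without WT ALP array 2, Rplp0 alone passed in each (2.77, adjusted p = 0.046, and -2.39, 0.0292, by limma).

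The replicate block, with numbers that are not known to pair the samples, gave 0 member calls. Its medians, 0.083 in ALP and -0.139 in CMP, could not differ from those of the main fit. The array numbers occur equally often in every group, so the unchanged medians are no check of the result. No fit with the slide as a block could be made, as the files name no slides. The medians over the 38 bright members (0.111 in ALP, -0.097 in CMP) and over the 56 subunit genes (0.069 and -0.121) were chosen after seeing the data. For dim probes the background limits what can be seen, as for Rplp2, Rpsa and Rps4l.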
